A study of Mus musculus with 10 samples.

Results

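Cirbp and Rbm3 are small RNA-binding proteins with a single RNA recognition motif and a glycine-rich tail, and both are known to be induced when mammalian cells are mildly cooled. PAR-CLIP maps where such a protein touches RNA. Cells take up the uridine analogue 4-thiouridine, ultraviolet light links it to the bound protein, and the crosslinked position is read in sequencing as a T-to-C change. The shared sites are the stretches of RNA at which the site lists of both proteins coincide. A shared site was a Cirbp site that overlapped an Rbm3 site on the same strand by at least 1 nt and lay within at least 1 transcript locus of the expression tables, on the mouse build mm9. Members were thus chosen by the measured positions of the sites in both lists. This rule found 270 of 1941 Cirbp sites, matched by 271 of 2118 Rbm3 sites. They fell in the loci of 211 genes, called host genes below, out of 22552 listed.

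The PAR-CLIP data hold 1 library of mouse embryonic fibroblasts with FLAG-tagged Cirbp and 1 with FLAG-tagged Rbm3, grown at 37 °C, given 100 µM 4-thiouridine for 16 h and precipitated through the FLAG tag, so the sites are those of tagged, stably introduced proteins and have no replicate. RNA-seq of polyadenylated RNA was made with 76 nt single-end reads from mock-transfected cells at 32 °C, cells transfected with siRNA against Cirbp at 37 °C (siCirbp), cells transfected with siRNA against Rbm3 at 37 °C (siRbm3) and mock-transfected cells at 37 °C, with 2 libraries each. No group with a control siRNA was analysed here. Nothing in the labels states that the 2 libraries of a group came from separate cultures, or what the siRNA numbers stand for. The p-values therefore describe the spread between libraries, which may be technical.

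The RNA-seq libraries held 24.8 to 27.8 M mapped fragments. Cirbp itself stood at 34.5 and 37.2 FPKM (fragments scaled by transcript length and by mapped fragments) in mock 32 °C, 10.8 and 6.07 in siCirbp, 13.8 and 23.8 in the libraries labelled siRbm3 and 15.9 and 17.1 in mock 37 °C. Levels of Rbm3 were low, with 3.64 and 3.20 FPKM in the cooled mock 32 °C libraries, 5.54 and 7.55 in both siCirbp libraries, 3.05 and 1.16 for the libraries labelled siRbm3 and 1.85 and 2.21 for mock 37 °C. The first library labelled siRbm3 was thus above both mock 37 °C libraries in Rbm3, against its label. Of 10 fibroblast markers, S100a4, Vim, Fn1, Col1a1 and Col1a2 stood above 100 FPKM in all 8 RNA-seq libraries, Pdgfrb, Fbn1, Col3a1 and Pdgfra reached down to 32.1, 21.5, 15.4 and 7.62 FPKM, and Thy1 was listed at 0. Of the 5 markers each of epithelium, endothelium and macrophages, most stayed under 1 FPKM in every library, but Krt19 reached 7.55 FPKM, Flt1 stood at 9.47 to 17.0 FPKM, Cd68 at 3.11 to 21.0 FPKM and Cd14 at 5.45 to 14.6 FPKM. Among neural markers, Tubb3 and Gfap stayed under 1 FPKM, while Sox2 stood at 10.4 to 38.9 FPKM and Nes at 6.77 to 38.7 FPKM.

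Some abundant RNAs of the RNA-seq libraries held no site, and some sites lay in genes with little RNA-seq signal. None of 24 collagen and extracellular matrix genes held a shared, Cirbp-only or Rbm3-only site, although Bgn averaged 1410 FPKM, Sparc 782 FPKM and Col1a1 621 FPKM over the 8 libraries. Of the 50 genes with the highest mean FPKM, 3 held a shared site and 11 held any site. Over all tested genes 1.72% held a shared site, so shared sites were not rarer among these 50. Of 22552 listed genes, 10901 had a mean of at least 1 FPKM, and most sites of each class lay in these. Of 270 shared sites, 22 (8.15%) lay only in genes under that mean, against 5.53% of 1302 Cirbp-only and 10.7% of 1435 Rbm3-only sites. Among those hosts were the Hox genes Hoxa3, Hoxa5 and Hoxc4, which set body position, the insulin receptor substrate Irs4, and Zfp711, a zinc finger gene with 3 shared sites that was listed at 0 in all 8 libraries. Hoxa5 stood at 0.128 to 0.426 FPKM and Irs4 at 0 to 0.0294 FPKM. The labels give mouse embryonic fibroblasts for both assays. Whether the tagged cells and the RNA-seq cells express the same genes was not tested, so host levels and host changes in the RNA-seq libraries may not describe the RNA in the cells in which the sites were mapped.

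Of the 6 shared sites inside microRNA loci, 5 had a locus whose hairpin is listed by RefSeq (GRCm38.p6). MicroRNAs are short RNAs that guide Argonaute proteins to target mRNAs through their seed, bases 2 to 8. Each of the 5 sites lay on 1 mature arm, and their sequences are shown because both site lists cover them. Capitals mark the seed.
mmu-miR-148b-3p: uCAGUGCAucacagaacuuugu
mmu-miR-148a-3p: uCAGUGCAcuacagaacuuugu
mmu-miR-425-5p: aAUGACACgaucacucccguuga
mmu-miR-3064-5p: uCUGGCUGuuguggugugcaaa
mmu-let-7b-5p: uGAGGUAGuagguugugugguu

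The first 2 share the seed CAGUGCA and are identical at 20 of 22 bases, differing by U9C and C10U (miR-148b-3p base, position from the 5′ end, miR-148a-3p base), so that reads of one could be placed on the other. The Cirbp and Rbm3 sites on Mir148a spanned the 22 bases of the mature arm exactly (chr6:51219828-51219849, minus strand, scores 538 and 301). On Mir148b the Rbm3 site did the same and the Cirbp site ran 1 nt further (chr15:103115616-103115638, plus strand, scores 334 and 510). The crosslinked nucleotide was a U of the hairpin for both proteins at all 5. On the miR-148 arms it fell at positions 19 and 20 of the mature sequence, near the 3′ end and outside the seed, and on miR-425-5p both proteins had it at position 21. On miR-3064-5p it fell at position 3 for Cirbp and 10 for Rbm3, and on let-7b-5p at position 6 for both, inside the seed. The let-7b site was weak (scores 1 and 101), and other let-7 members have near-identical sequences. The sixth locus, Mir5109, had a score of 1 for both proteins. Shared sites lay in a microRNA locus in 2.22% of cases, against 0.614% of Cirbp-only and 0.697% of Rbm3-only sites, a comparison of 2 libraries with no replicate.

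Within loci, shared sites made up 17.2% of 1572 Cirbp sites (95% Wilson interval 15.4 to 19.1) and 15.9% of 1706 Rbm3 sites (14.2 to 17.7). These intervals, and the others given for shares of sites, cover counting error only. Of the shared sites, 263 had 1 Rbm3 partner and 7 had 2, and 6 Rbm3 sites matched 2 Cirbp sites. A further 96 Cirbp sites overlapped an Rbm3 site outside every locus and are not members. The rule asked for 1 nt, yet the smallest overlap was 5 nt, the median 28 nt, and 256 sites (94.8%) overlapped by at least 20 nt. Just outside the rule, 9 Cirbp sites in a locus had an Rbm3 site after a gap of under 5 nt and 42 after a gap of under 50 nt.

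The rule used the extent of the sites but not the crosslinked nucleotide that the authors marked in each. Where a site had 2 partners, the nearer crosslink was taken. Both proteins had the same crosslinked nucleotide at 64 shared sites (23.7%) and lay within 2 nt of each other at 105, within 10 nt at 175 (64.8%) and within 20 nt at 220. The median distance was 5 nt and the largest 110 nt, in Srsf1. Overlap itself limits how far apart the 2 positions can be, so this closeness has no test here. Rbm3 was crosslinked downstream of Cirbp at 105 sites and upstream at 101.

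**Figure D1:**
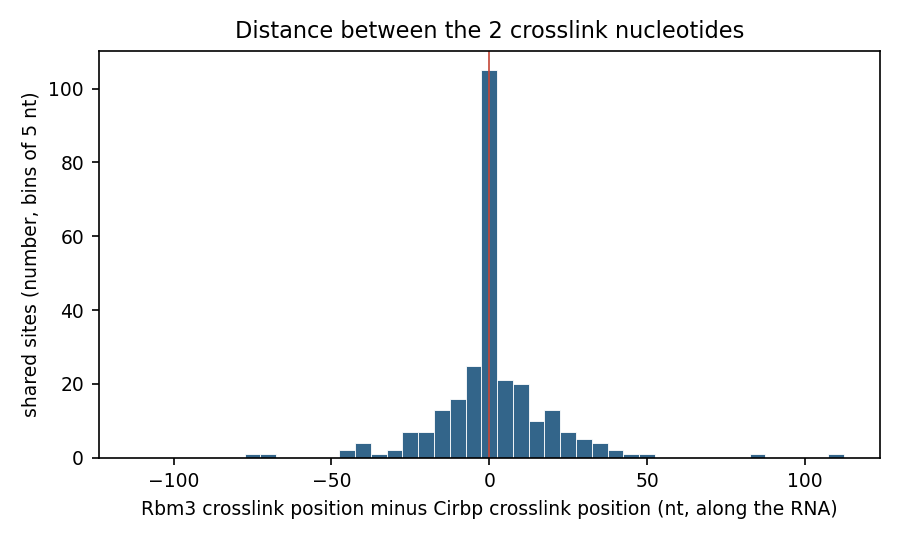
Distance in nt between the crosslinked nucleotides of Rbm3 and Cirbp along the RNA at the 270 shared sites (positive values mean Rbm3 downstream; bars count sites in bins of 5 nt; the red line marks 0). The central bin, from -2 to 2 nt, holds 105 sites, and the tails reach 110 nt on the downstream side.

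Each deposited site has a score on the authors' scale, a whole number up to 1000 whose meaning is not stated. Shared sites had a median Cirbp score of 334 (quartiles 233 and 434), against 301 (233 and 382) for Cirbp-only sites. Their best Rbm3 partners had a median of 401 (301 and 497), against 318 (201 and 426) for Rbm3-only sites. Scores of different proteins come from different lists and are not comparable in level. The lower of the 2 scores reached 400 at 58 shared sites and 500 at 18. Across the 270 sites the scores had a Spearman rho of 0.38, a description of 1 library each. The part of host RNA abundance in it was not tested. By score band, the shared portion of Cirbp sites was 18.9% at scores of 1 to 199, 14.3% at 200 to 399, 20.2% at 400 to 599 and 37.7% at 600 to 1000 (20 of 53 sites, Wilson 25.9 to 51.2). For Rbm3 it was 8.87%, 13.1%, 22.6% and 27.4% (31 of 113 sites, Wilson 20.1 to 36.3) in the same bands. Both had their highest share in the top band, although 18 shared sites had a Cirbp score of 1.

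**Figure D2:**
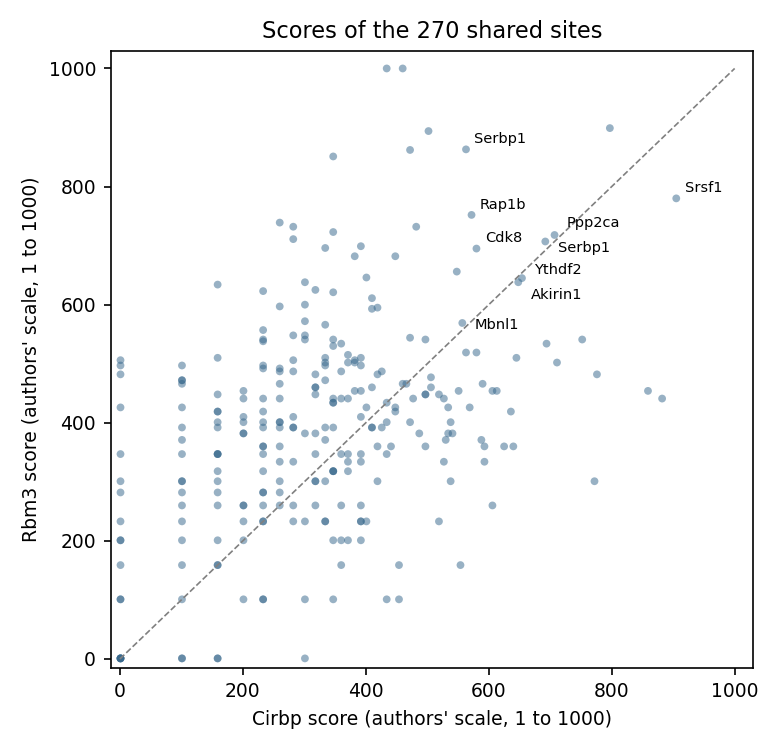
Cirbp score (x axis) and Rbm3 score of the best partner (y axis), both on the authors' scale of 1 to 1000, at each of the 270 shared sites (points; darker where points coincide; dashed line of equality). Labels mark 9 of the sites with the highest lower scores, such as Srsf1 at 905 and 780, and the points scatter widely around the line.

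Of the 10 sites with the highest lower score, 9 are described here. A 155 nt site lay in Srsf1, a splicing factor of the SR family (chr11:87863448-87863602, plus strand, 905 and 780). Ppp2ca, the catalytic subunit of protein phosphatase 2A, had 707 and 718 (chr11:51935520-51935559, plus strand) with the same crosslinked nucleotide. Serbp1, an mRNA- and ribosome-associated protein, had 2 of the sites, with 692 and 707 (chr6:67234275-67234349) and 563 and 863 (chr6:67234069-67234097), both on the plus strand. Ythdf2, a reader of N6-methyladenosine that sends mRNAs to decay, had 654 and 645 (chr4:131761187-131761216, minus strand). The others lay in Akirin1 (648 and 638), a nuclear factor, Cdk8 (580 and 695), the kinase of the Mediator complex, Rap1b (572 and 752), a small GTPase, and Mbnl1 (557 and 569), a splicing regulator. The crosslinked nucleotide was the same in both lists at the Ppp2ca, Ythdf2 and Cdk8 sites and at the first of the Serbp1 sites. The deposited tables give loci but no exon boundaries, so whether these sites are exonic, intronic or in a UTR is not stated here.

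A single shared site was held by 169 of the 211 hosts, 2 by 25, 3 by 9 and at least 4 by 8. Srsf1 had most, with 7 sites between 2416 and 4222 nt from the 3′ end of its locus, at relative positions of 0.306 to 0.603 along it, beside 7 Cirbp-only sites and 1 Rbm3-only site. Hnrnpa2b1, an hnRNP that binds nascent and exported mRNA, had 6 at 1034 to 4274 nt. Klhl15, an adaptor of a cullin ubiquitin ligase, also had 6, of which 4 lay within 980 nt of the end of its longest locus. The other 2 lay 3472 and 3548 nt from the end of a shorter one. Klhl15 stood at 1.97 to 4.18 FPKM over all libraries. Serbp1 had 5, of which 3 fell together at 5018 to 5223 nt. Nufip2, an RNA-binding partner of FMRP, had 5 in 2 groups, at 7908 to 8125 nt and at 24774 and 25204 nt. In Cdk8, 4 sites fell within a window of 41608 to 41834 nt from the 3′ end. Neighbouring sites of 1 gene come from the same RNA and are not independent.

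**Figure D3:**
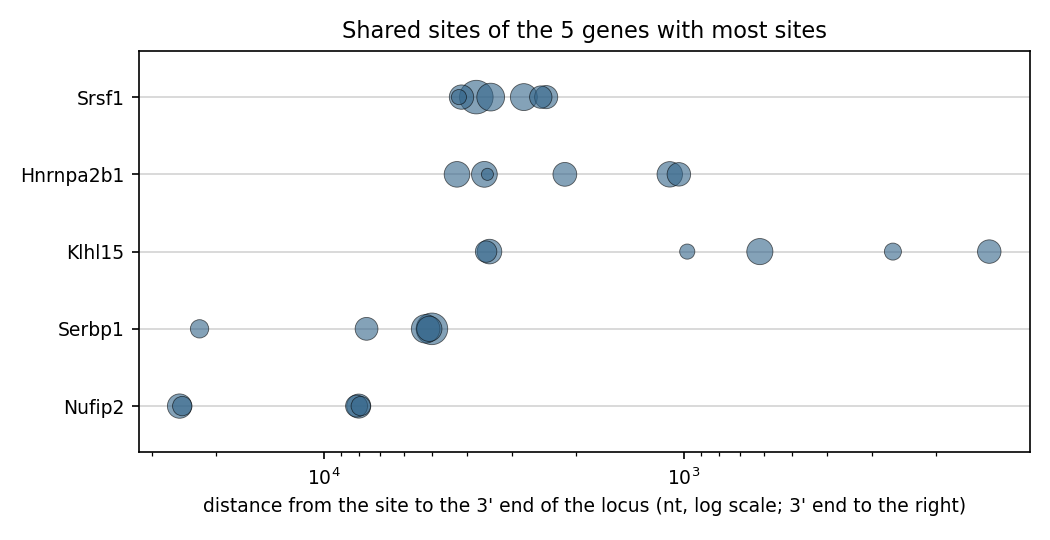
Distance in nt from the crosslinked Cirbp nucleotide to the 3′ end of the locus (log scale, 3′ end to the right) for the shared sites of the 5 genes with most of them; each circle is 1 site and its area follows the lower of its 2 scores. Sites fall in clusters, and the sites of Klhl15 come closest to an end, at 142 nt.

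Where the strand of the host is known from RefSeq, 206 shared sites lay on the sense strand and 0 on the antisense strand, against 1024 and 1 Cirbp-only and 1167 and 3 Rbm3-only sites. Another 7 shared sites lay in loci of genes on both strands, of which only 1 is the strand of the site, and for 57 no strand was matched. Of hosts, 109 also held a Cirbp-only site, 99 an Rbm3-only site, 66 both and 69 neither.

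The study asked about alternative polyadenylation, the choice between 3′ ends of an mRNA. The position of the sites was therefore set against the locus, as the distance of the crosslinked nucleotide from the nearest end of a locus that holds it. Shared sites lay within 200 nt of a 3′ end in 18 of 270 cases (6.67%, 95% Wilson interval 4.3 to 10.3), against 7.37% of Cirbp-only (6.1 to 8.9) and 3.14% of Rbm3-only sites (2.4 to 4.2). Of these 18, 7 lay in loci under 200 nt, which are those of 6 microRNAs and of the snoRNA Snord15b, where every position is near the end. With such loci left out, a choice made after seeing the data, the share was 11 of 266 (4.14%, 2.3 to 7.3), against 6.77% of Cirbp-only (5.5 to 8.3) and 2.24% of Rbm3-only sites (1.6 to 3.1). The 11 lay in 5430417L22Rik, Dcun1d5, Paip2, Klhl15, Cnot2, 2300009A05Rik, Bcor, Hoxc4, Zfp711, Rlim and Rbm15. Cnot2 is a subunit of the deadenylase complex that shortens poly(A) tails, and Paip2 is an inhibitor of poly(A)-binding protein. Within 1000 nt of the 3′ end stood 21.1% of shared (16.7 to 26.4), 22.8% of Cirbp-only (20.6 to 25.2) and 14.8% of Rbm3-only sites (13.0 to 16.7).

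Toward the 5′ end the shared sites stood between the other classes. Within 1000 nt of a 5′ end lay 9.26% of them (6.4 to 13.3), against 3.76% of Cirbp-only (2.9 to 4.9) and 18.7% of Rbm3-only sites (16.8 to 20.8). With loci under 200 nt left out these shares were 6.77% of shared (4.3 to 10.4), 3.23% of Cirbp-only (2.4 to 4.3) and 17.9% of Rbm3-only sites (16.0 to 20). The last 20% of the locus, toward the 3′ end, held 47.4% of shared, 52.3% of Cirbp-only and 40.3% of Rbm3-only sites. With 1 library per protein none of these differences has a test, and sites of 1 gene share its RNA.

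**Figure D4:**
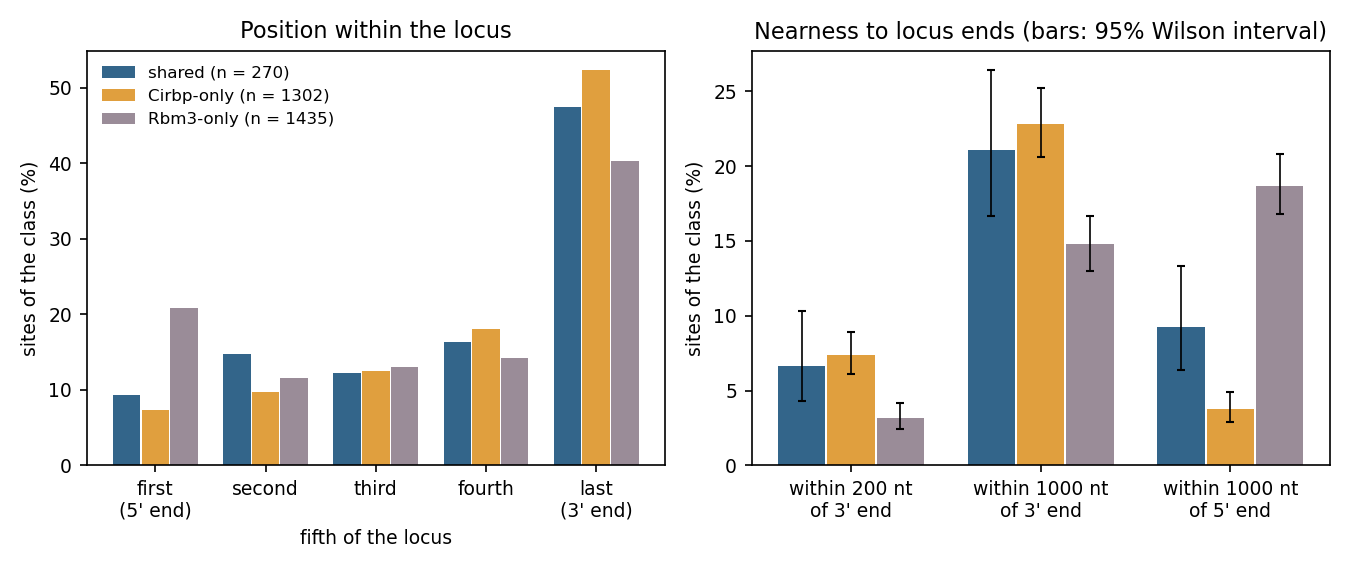
Left, percent of sites in each 20% of the locus, running to the 3′ end at the right; right, percent within a given distance of a locus end, with 95% Wilson intervals as error bars. Shared sites (blue) are drawn first, then Cirbp-only (orange) and Rbm3-only sites (grey-purple). The Rbm3-only bar is the highest near the 5′ end (18.7%) and the lowest near the 3′ end (3.14%), and shared sites near the 5′ end stand at 9.26%.

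Among the lists examined, that of RNA-binding proteins held most hosts, 16 of the 211. Of 38 listed hnRNPs and other RNA-binding proteins, 16 (42.1%) were hosts, with 29 shared sites in all, against 0.936% of all listed and 1.72% of all tested genes. Sites of any kind lay in 29 of the 38, so the list was not set apart by shared sites alone. Highest by lower score were Matr3, a nuclear matrix protein (541 for the lower score of its best site), Hnrpdl, an hnRNP D relative (776 and 482 for Cirbp and Rbm3), Hnrnpa2b1 (460 and 466) and Hnrnpu, a scaffold of nuclear RNA (613 and 454). Of 18 SR proteins and CLK kinases, Srsf1 and Srsf6 were hosts. Of 22 heat shock and ER chaperones, 3 were hosts, namely Hspa5, the ER chaperone BiP, with Hspa4 and the cytosolic Hsp90ab1. Of 22 translation factors, the helicase Eif4a2, the elongation factor Eif5a and the initiation factor Eif4g2 were hosts. Pabpc1, the cytoplasmic poly(A)-binding protein, was the only host among 22 genes of pre-mRNA 3′ end processing, and its site scored 101 for both. Cnn3, a calponin, was the only one of 29 actin genes, and 0 of 25 cell cycle, 0 of 20 clock and 0 of 24 collagen and matrix genes were hosts. The lists were chosen with earlier results of these data known, so these shares are descriptions.

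Host genes stood at higher levels per length than the median gene. Their median over the 188 tested stood at 23.1 to 33.6 FPKM in the 8 libraries, against 11.4 to 13.5 FPKM over all 10901 genes tested (mean of at least 1 FPKM). Hosts of Cirbp-only sites without a shared one stood at 17.9 to 25.2 FPKM, and those of Rbm3-only sites at 13.7 to 18.4 FPKM. A more abundant RNA yields more crosslinked reads, and the part of abundance in the sharing was not tested. Among the 188 hosts, mean FPKM had a Spearman rho of 0.04 with the best lower score and of 0.09 with the number of shared sites, across genes, which are not replicates. The other 23 hosts, 5 of them listed at 0 in all libraries, were under the filter and not tested. Small RNAs are poorly measured in polyadenylated RNA, and Mirlet7b was listed at 646 and 0 FPKM in mock 32 °C, against 0 and 0 in mock 37 °C.

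At 32 °C, the temperature at which both proteins are known to be induced, host genes moved in both directions. Limma on log2(FPKM + 1) with Benjamini-Hochberg adjustment over all genes (threshold 0.05) called 27 of 188 hosts higher (14.4%) and 38 lower (20.2%), against a background of 13.0% higher, 19.8% lower and 32.8% in either direction among all 10901 genes. The shares are near the background. The median log2 fold change was 0.00 over hosts and -0.02 over all genes. Cirbp, which is not a host, passed as higher (1.07, SE 0.30, limma adjusted p = 0.0313). Rbm3, also not a host, did not pass (0.55, SE 0.30, limma adjusted p = 0.191). Centring on the median moved the median of all genes by 0.125, and the split of called hosts was then 35 higher and 28 lower. With it, positive log2 fold changes went from 48.9% to 56.5% of all genes and from 50.5% to 60.6% of hosts. The share of all genes called in that fit is not given here, so the split is not read as a result about hosts. When 1 of the 4 mock libraries was left out, far fewer hosts passed: 13 without the first mock 32 °C library, 7 without the second, 12 without the first mock 37 °C library and 6 without the second. These are 3.19% to 6.91% of hosts, against 3.67% to 7.58% of all genes in the same fits. Fewer cells of a type and less RNA per cell cannot be told apart in such bulk samples.

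Among hosts that rose at 32 °C was Hspa5, at 604 and 649 FPKM in mock 32 °C, against 304 and 305 in mock 37 °C. Its groups did not overlap, and the log2 fold change was 1.04 (SE 0.14, n = 2 each, limma adjusted p = 0.0036). Its site lies 935 nt from the 3′ end (chr2:34631108-34631136, plus strand, scores 301 and 638). Rpp14, a subunit of RNase P, stood at 10.3 and 12.3 FPKM in mock 32 °C, against 4.50 and 4.65 in mock 37 °C (log2 fold change 1.14, SE 0.16, limma adjusted p = 0.004). Mat2a, which makes S-adenosylmethionine, stood at 42.5 and 45.5 FPKM in mock 32 °C, against 21.1 and 22.1 in mock 37 °C (0.99, SE 0.21, limma adjusted p = 0.0131). Spata5 (1.1), an AAA ATPase, Ube2w (1.03), a ubiquitin-conjugating enzyme, and Zfp207 (0.97), a spindle assembly factor, rose as well. Of the genes with the strongest sites, Serbp1 rose to 70.0 and 75.9 FPKM in mock 32 °C, against 44.5 and 43.7 in mock 37 °C (0.71, SE 0.15, limma adjusted p = 0.0128). Akirin1 rose to 6.42 and 6.86 FPKM, against 4.02 and 4.43 (0.55, SE 0.15, limma adjusted p = 0.0271). Srsf1, Ppp2ca, Ythdf2, Cdk8, Rap1b and Mbnl1 did not pass. Whether Serbp1 and Akirin1 pass without 1 library is not given here. Rpp14, Spata5, Hspa5, Ube2w, Mat2a and Zfp207 each kept their direction but missed the threshold without the second mock 32 °C or the second mock 37 °C library, with limma adjusted p between 0.0508 and 0.128. Spata5, Mat2a and Zfp207 missed it without either of the first mock libraries as well. Zfp207 also missed it when only the highest transcript of each gene was used (0.72, limma adjusted p = 0.124).

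The falls at 32 °C were led by 1190002F15Rik, an uncharacterised transcript, at 2.67 and 4.74 FPKM in mock 32 °C, against 24.4 and 27.8 in mock 37 °C (log2 fold change -2.56, SE 0.24, limma adjusted p = 0.00191). Alkbh5, a demethylase of N6-methyladenosine, stood at 17.5 and 17.7 FPKM in mock 32 °C, against 62.9 and 60.6 in mock 37 °C (-1.75, SE 0.19, limma adjusted p = 0.00231). Its site lies at chr11:60361207-60361241, plus strand (scores 318 and 382). Foxo3, a forkhead factor of the insulin pathway, stood at 11.3 and 10.8 FPKM in mock 32 °C, against 30.3 and 34.4 in mock 37 °C (-1.46, SE 0.17, limma adjusted p = 0.0026). The site of Foxo3 scored 1 for Cirbp and 426 for Rbm3. In these genes all libraries of mock 32 °C lay below all of mock 37 °C. Pabpc1 stood at 61.5 and 59.0 FPKM in mock 32 °C, against 146 and 145 in mock 37 °C (-1.26, SE 0.20, limma adjusted p = 0.00542). Prrc2a (-1.50), a proline-rich RNA-associated protein, and Wnk1 (-1.30), a kinase of ion transport, fell likewise. Hsp90ab1 fell to 449 and 466 FPKM in mock 32 °C, against 1060 and 999 in mock 37 °C (-1.17, SE 0.19, limma adjusted p = 0.00623), so the chaperone hosts Hspa5 and Hsp90ab1 moved in opposite directions. Hspa4 had a log2 fold change of 0.27 (limma adjusted p = 0.188). Wnk1 missed the threshold without the second mock 32 °C library (limma adjusted p = 0.052), and Pabpc1 without that library or either mock 37 °C library.

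**Figure D5:**
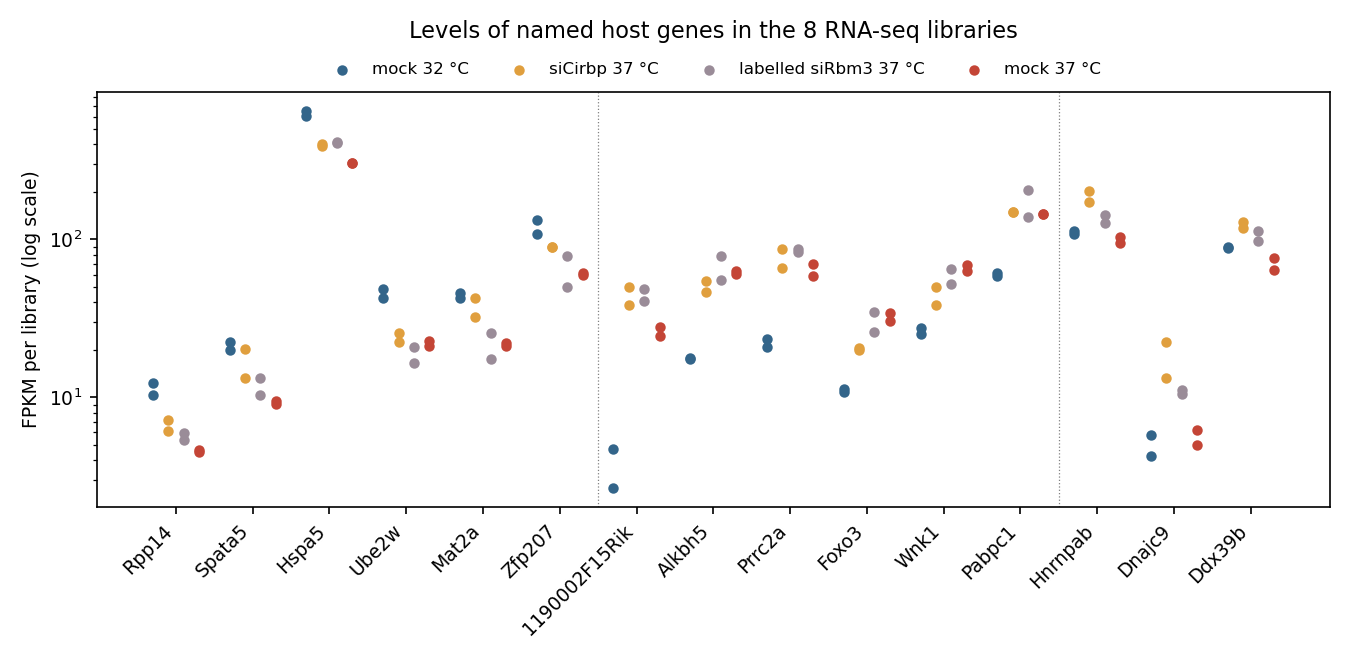
FPKM per library (log scale) of the host genes named for 32 °C (first 6 higher, next 6 lower in mock 32 °C than in mock 37 °C) and of the 3 called in siCirbp (last 3). Each point is 1 library, with mock 32 °C, siCirbp, labelled siRbm3 and mock 37 °C from left to right within a gene; Hspa5 stands at 604 and 649 in mock 32 °C, against 304 and 305 in mock 37 °C, and 1190002F15Rik at 2.67 and 4.74, against 24.4 and 27.8.

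After siRNA against Cirbp, limma called 3 of 188 hosts higher (1.60%) and 0 lower than mock 37 °C, against a background of 2.77% higher, 0.624% lower and 3.39% in either direction. Cirbp itself was lower but did not pass (log2 fold change -0.94, SE 0.30, limma adjusted p = 0.116). Rbm3 was higher and did not pass either (1.31, SE 0.30, limma adjusted p = 0.0588). At an unadjusted p under 0.05, 44 hosts (23.4%) were higher and 6 (3.19%) lower, against 17.6% and 6.61% of all genes. The called genes were Hnrnpab, an hnRNP, Dnajc9, a chaperone of histones, and Ddx39b, a helicase of splicing and mRNA export. Hnrnpab stood at 174 and 204 FPKM in siCirbp, against 95.6 and 103 in mock 37 °C (log2 fold change 0.92, SE 0.15, limma adjusted p = 0.0326). The shared site of Hnrnpab also lies in Agxt2l2, a gene on the other strand. With hosts limited to genes on the strand of the site, the count called stayed at 3, so Hnrnpab remained a host. Dnajc9 stood at 13.3 and 22.3 FPKM in siCirbp, against 6.26 and 5.01 in mock 37 °C (1.46, SE 0.26, limma adjusted p = 0.0364). Ddx39b stood at 119 and 130 FPKM in siCirbp, against 64.2 and 76.5 in mock 37 °C (0.81, SE 0.16, limma adjusted p = 0.0431). The libraries of the groups did not overlap in any of them. The called count fell to 0 without the second siCirbp library or without any 1 of the mock libraries, and rose to 36 without either library labelled siRbm3 (19.1% and 19.3% of hosts, against 14.8% of all genes in those fits). In the fit with the replicate numbers as a block, 0 hosts passed. Under quantile normalization 2 hosts passed as higher, Dnajc9 among them, and 1 as lower, Foxo3 (-0.79, limma adjusted p = 0.0387). Hnrnpab and Ddx39b did not pass. The share of all genes called in the block fit and under quantile normalization is not given here. Their counts are therefore not read as a result about hosts.

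The lowest p among hosts lower in siCirbp belonged to Foxo3, at 20 and 20.4 FPKM in siCirbp, against 30.3 and 34.4 in mock 37 °C (log2 fold change -0.65, limma adjusted p = 0.0785). Its only shared site had a score of 1 for Cirbp, the lowest on the scale, and of 426 for Rbm3. Wnk1 (-0.58), Filip1l (-0.76) and 2300009A05Rik (-0.53) followed, and none passed. The sites of Filip1l also lie in 2610528E23Rik, a gene on the other strand, and which of these genes is on the strand of the sites is not given here. All 16 host genes of the list of RNA-binding proteins had a positive log2 fold change, from 0.01 to 0.92 with a median of 0.50, of which only Hnrnpab passed. The other 21 tested members of the list had a median of 0.42 with 19 positive, and all 10901 genes had a median of 0.08 with 58.8% positive. Under quantile normalization 14 of the 16 were positive and 0 passed, and under median centring 15 were. Of the 5 genes with most sites none passed. Srsf1 stood at 80.6 and 97.0 FPKM in siCirbp, against 48.2 and 47.4 in mock 37 °C (0.87, limma adjusted p = 0.122). Hnrnpa2b1 stood at 296 and 287 FPKM in siCirbp, against 172 and 173 in mock 37 °C (0.75, limma adjusted p = 0.0772). Klhl15 stood at 2.20 and 2.60 FPKM in siCirbp, against 3.45 and 3.20 in mock 37 °C (-0.35, limma adjusted p = 0.245). Serbp1 had a log2 fold change of 0.60 and Nufip2 of 0.01, and the Nufip2 libraries overlapped.

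In the libraries labelled siRbm3, 0 of 188 hosts passed against mock 37 °C, and 0 of all 10901 genes (background 0.0%). At an unadjusted p under 0.05, 13 hosts (6.91%) were higher and 10 (5.32%) lower, against 9.21% and 4.1% of all genes. The lowest p belonged to Zfp281, a zinc finger repressor, at 15.5 and 8.73 FPKM in siRbm3, against 27.9 and 27.8 in mock 37 °C (log2 fold change -1.19, SE 0.24, limma adjusted p = 0.35). The estimate of 1 of its values, in mock 37 °C, carried a failed status in the deposited table. Rev3l (-1.09), Braf (-0.87) and Filip1l (-0.67) were next among lower hosts, and Ddx39b (0.58), Brd2 (0.45), 2610528E23Rik (0.58) and Dnajc9 (0.84) among higher ones. Filip1l and 2610528E23Rik overlap on opposite strands and their loci hold the same 2 shared sites, so they are not separate hosts. Only 1 of the 2 genes can lie on the strand of a site, and which one is not given here. The 2 libraries stood far apart in several hosts, as in Matr3 at 57.9 and 22.5 FPKM and Srsf1 at 65.1 and 33.1 FPKM. Without the first library, whose Rbm3 level goes against its label, 36 hosts passed (19.1%, against 8.75% of all genes in that fit), and without the second 0 passed. The 36 therefore rest on the second library alone.

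Between siCirbp and the libraries labelled siRbm3, 0 of 188 hosts passed, against a background of 0.0183% higher, 0.0183% lower and 0.0367% in either direction. At an unadjusted p under 0.05, 32 hosts (17.0%) were higher and 3 (1.6%) lower, against 9.19% and 5.98% of all genes. The median log2 fold change was 0.17 over hosts and 0.00 over all genes. Smc4, a condensin subunit, stood at 98.9 and 93.6 FPKM in siCirbp, against 44.2 and 22.7 in siRbm3 (1.57, SE 0.28, limma adjusted p = 0.221). Mat2a (0.79), Hnrnpa2b1 (0.73) and Matr3 (1.28) were next among higher hosts, and Foxo3 (-0.55), 2300009A05Rik (-0.45), Spen (-0.68) and Wnk1 (-0.40) among lower ones. Without the first library labelled siRbm3, 61 hosts passed (32.4%, against 19.6% of all genes in that fit), and without the second 0 passed. The comparisons with mock 37 °C share those controls, and host transcripts were longer than the average (median 3651 nt, against 2766 nt over all genes tested). Log2 fold changes against mock 37 °C ran against transcript length across hosts, with a Spearman rho of -0.25 at 32 °C, -0.29 in siCirbp and -0.39 in siRbm3, and of 0.10 in siCirbp over siRbm3. Over all genes tested the values were -0.34, -0.27, -0.33 and -0.01 in the same comparisons, so the relation is not one of hosts alone. The part of length in these values was not tested.

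Transcript shares were compared for 92 transcripts of 39 host genes, as the log2 ratio of a transcript to the rest of its gene. Limma called 0 of them in each of the 4 comparisons, against a background of 0.238% of 2936 transcripts at 32 °C and 0.0% in the other comparisons. At an unadjusted p under 0.05 there were 14 at 32 °C (15.2%, against 14.3% of all transcripts tested), 16 in siCirbp (17.4%, against 11.4%), 3 in siRbm3 (3.26%, against 4.56%) and 6 in siCirbp over siRbm3 (6.52%, against 10.0%). The lowest adjusted p among host transcripts was 0.158, at 32 °C.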

How the data were processed

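Sites and scores were used as deposited by the authors: 1 list per protein on mm9, each site with a score, a strand and a crosslinked nucleotide, per the file headers. The site caller and the scale of the score are not given in the sources used here. The authors deposited FPKM and coverage per transcript, in Cufflinks format per the file headers, with alignment by TopHat 1.1.2 to mm9 per the submitters' processing notes. The ratio of the deposited coverage to FPKM gave the mapped fragments.

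FPKM were summed per gene. The 10901 genes with a mean of at least 1 FPKM were fitted with limma 3.58.1 (R 4.3.3) on log2(FPKM + 1) with 4 group means, trend and robust options, two-sided, adjusted by Benjamini-Hochberg. A fold change on this scale understates the change of low genes. Shares were tested likewise for genes averaging 5 FPKM or more in which 2 or more transcripts each made up 10% of the gene. The gene fit was run on simulated data in which each gene had the same spread in all groups. The wider spread between the libraries labelled siRbm3 was not simulated, and the outcome is not given here. The main fit did not pair libraries by replicate number. The labels do not say whether the numbers pair them, and residual correlations of same-numbered libraries were weak (-0.153 to 0.091).

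Named were Cirbp and Rbm3, the 10 sites with the highest lower score, the 5 genes with most sites, up to 4 hosts per list, and per comparison the 6 largest rises and falls of non-overlapping hosts of at least 5 FPKM, or the 4 smallest p each way where fewer than 5 passed. Some items that meet this rule are not reported here. Genes named outside it were chosen after their values were seen. Members and lists were chosen with earlier results of these data known. No mm9 sequence was used here.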

Additional observations from a re-analysis of the deposited data

How the results depend on the processing

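The count of 270 shared sites was 228 with a reciprocal overlap of at least 50%, 270 with strand ignored and 366 with sites outside loci kept. It was 129 with scores of at least the median of each list, where the median Cirbp score was 426. The share within the 3′ end window was 4.07% for 100 nt, 9.63% for 500 nt, and 4.14% with loci under 200 nt left out, which was added after seeing the data. The 65 hosts called at 32 °C became 34 with the score limit, which leaves 94 tested hosts, 123 with only the 2 groups compared and 0 with no filter on low values, and ranged from 6 to 93 when 1 library was left out. The 3 hosts called in siCirbp became 0 with no filter and 0 with only the 2 groups compared, and ranged from 0 to 36 without 1 library. The called hosts ranged from 0 to 36 for siRbm3 and from 0 to 61 for siCirbp over siRbm3 without 1 library. The score limit leaves the main fit unchanged, in which 32.8% of all genes were called at 32 °C. In the fits without 1 library the share of all genes called moved with that of hosts. For the other settings that share is not given here, so their counts are not read as a result about hosts. The cause was not tested. The count of host transcripts with a changed share was 0 in each setting and comparison run.

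Hosts on the strand of the site, also added later, gave 49 calls at 32 °C and 3 in siCirbp. These come from the main fit, which called 32.8% and 3.39% of all genes. With the replicate block, 55 hosts passed at 32 °C and 0 in siCirbp, and the share of all genes in that fit is not given here. The labels do not say whether the numbers pair libraries, and the weak residual correlations cannot settle it. For single genes, Rbm3 reversed at 32 °C to -0.67 with the highest transcript only. Rbm3 in siRbm3, at -0.03, reversed to 0.03 with quantile normalization, 0.11 with the highest transcript only, and 0.05 or 0.42 without the second mock 37 °C or second siRbm3 library. Cirbp in siRbm3, at 0.13, reversed to -0.24 without the second siRbm3 library. Without 1 library these values ranged from -0.24 to 0.5 for Cirbp and from -0.48 to 0.42 for Rbm3.

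The main limits are 1 PAR-CLIP library per protein, an unstated score scale and 2 RNA-seq libraries per group. In libraries left at 1 per group, that library is assumed to vary like the other groups. Overlapping genes cannot be told apart in FPKM where reads fall in both.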

Other observations

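Outside the lists, several hosts act on N6-methyladenosine, a mark on mRNA. They were picked after their sites were seen and have no test as a group. Genes of this kind without a shared site were not counted, so no share of hosts among them is given. The readers Ythdf2 and Ythdf3 held 3 shared sites each, with scores for Cirbp and Rbm3 of 654 and 645, 434 and 1000, and 334 and 696 in Ythdf2, and of 347 and 621, 282 and 711, and 233 and 538 in Ythdf3. In both genes 2 of the 3 sites had the same crosslinked nucleotide in both lists. The eraser Alkbh5 (318 and 382), and Rbm15 (1 and 347) and Cbll1 (347 and 101), which work with the methyltransferase, held 1 each. At 32 °C Alkbh5 is the one of these 5 that passed limma, against 32.8% of all genes. Ythdf2 stood at 9.54 and 9.22 FPKM in mock 32 °C, against 8.59 and 8.79 in mock 37 °C. Rbm15 stood at 4.94 and 4.56 FPKM in mock 32 °C, against 8.46 and 9.18 in mock 37 °C (log2 fold change -0.77, limma adjusted p = 0.0638).

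Other hosts, also picked later, regulate mRNA decay, and decay genes without a shared site were likewise not counted. The deadenylase subunits Cnot2 (371 and 502) and Cnot6 (159 and 159), the microRNA effector Tnrc6a (233 and 492) and the decay factor Rc3h2 (392 and 347) each held 1 site, and Smg1, the kinase of nonsense-mediated decay, held 2. None of these 5 passed limma in any of the 4 comparisons. Of all genes, 32.8% passed at 32 °C, 3.39% in siCirbp, 0.0% in siRbm3 and 0.0367% in siCirbp over siRbm3.

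The 96 overlapping sites outside every locus had a median score of 365.5 for Cirbp and 405.5 for the best Rbm3 partner, with a highest score of 1000 in both. What RNA they lie on was not analysed here.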
